A study of Mus musculus with 3 samples.

Results

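The 10 genes described here encode proteins that either restrain signalling through the kinase ERK or are switched on by it. They were chosen by name, from gene families, with earlier results of these data known. All 10 were found among the 22698 Ensembl genes of the deposited RNA-seq of mouse melan-a cells. They fall into 4 families, with 2 dual-specificity phosphatases (*Dusp4*, *Dusp6*), 3 Sprouty genes (*Spry1*, *Spry2*, *Spry4*), 2 SPRED genes (*Spred1*, *Spred2*) and 3 ETS transcription factors of the PEA3 group (*Etv1*, *Etv4*, *Etv5*). Melan-a is an immortalized line of pigmented mouse melanocytes. The labels give a C57BL/6J background and melanocytes from Ink4a-ARF-/- mice, and the cells received no experimental treatment. All 3 biological replicates, labelled 1, 3 and 4, were grown in the same medium with 10% fetal bovine serum, 200 nM of the phorbol ester TPA and 200 pM cholera toxin, so no replicate shows the genes without these additions. With a single condition, the comparisons are between genes and between replicates, and the error is the spread of the 3 replicates, which may be technical in part since the labels say nothing of separate cultures.

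In the ERK pathway, receptor tyrosine kinases load RAS with GTP, RAS activates RAF kinases, RAF phosphorylates MEK, and MEK phosphorylates ERK, which enters the nucleus and changes transcription. Some of the genes that ERK induces act back on the pathway. DUSP4 and DUSP6 remove the activating phosphates from ERK, Sprouty proteins act between the receptor and RAF, and SPRED proteins bring neurofibromin, a RAS GTPase-activating protein, to the membrane. PEA3 factors carry the signal forward as activators of transcription. In melanocytes this pathway lies downstream of KIT and other growth factor receptors, and phorbol esters feed into it through protein kinase C. These statements are background and were not measured in the samples.

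Expression is given as FPKM, a read density per kilobase of exon and per 1000000 reads of the library, with library sizes that the authors adjusted by the TMM method (trimmed mean of M values). Low values of genes with a single annotated transcript fell on whole reads at scaled library sizes of 53800000, 47000000 and 66300000 reads in replicates 1, 3 and 4, and read numbers below are estimates from these sizes and from the joined exon length. The cell type named by the labels was checked on markers. Of 9 melanocyte genes, 8 were at 1 FPKM or more in every replicate, with a sum of 5779.45 to 6618.25 FPKM and a highest mean of 3143.61 FPKM for *Tyrp1*, but *Kit* had a mean of 0.68 FPKM. The 6 keratinocyte markers summed to 0.36 to 0.70 FPKM with 3 of them at 0 in every replicate, the 5 fibroblast markers to 1.52 to 1.85 FPKM with *Col1a1* the highest and 1 at 0, and the 4 immune markers to 0.76 to 1.6 FPKM with 3 at 0. The part of other cells in the values of the members was not tested. *Cdkn2a*, the gene that encodes Ink4a and ARF, had 19.24, 16.49 and 24.32 FPKM in replicates 1, 3 and 4, and a total over the gene does not show which exons the reads cover, so it does not check the genotype.

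Of the 10 genes, 9 were at 1 FPKM or more in every replicate, against 44.1% of all genes in the files. The exception was *Etv1*. The median of the 10 means was 15.27 FPKM, beside 0.28 FPKM over all genes and 11.15 FPKM over the 10011 genes of at least 1 FPKM in every replicate. A median of 81.9% of all genes had a lower mean than a member. *Dusp6* alone ranked among the highest 1000 genes, a category that holds 4.41% of genes by its construction. None of the exons of the 10 genes overlapped an exon of another annotated gene on either strand.

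**Figure D1:**
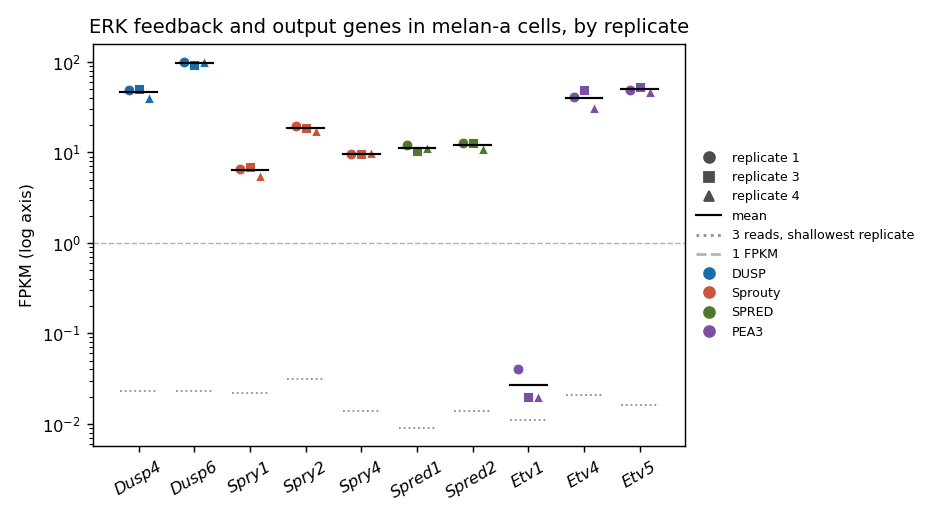
FPKM on a log axis for each of the 10 genes in replicates 1 (circles), 3 (squares) and 4 (triangles), with the mean as a black bar, 1 FPKM as a dashed line and the value of 3 reads in the shallowest replicate as a dotted bar. The DUSP genes, *Etv4* and *Etv5* lie above 30 FPKM, the Sprouty and SPRED genes between 5.54 and 19.84 FPKM, and *Etv1* at 0.02 to 0.04 FPKM.

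*Dusp6* was the highest of the 10 genes. It encodes a cytoplasmic phosphatase with a preference for ERK and occupies bases 98725865 to 98730122 of chromosome 10 (mm9, plus strand). Replicates 1, 3 and 4 had 99.19, 92.91 and 99.22 FPKM (97.11 ± 3.63 FPKM, SD, n = 3), which put it at rank 604 of 22698. About 12209 to 18393 reads stood behind each value, so counting error alone would give a coefficient of variation (CV) of 0.8%, against 3.7% between the replicates.

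*Dusp4*, which encodes a nuclear phosphatase of the same class, occupies bases 35870351 to 35882948 of chromosome 8 (mm9, plus strand) and was at 48.83, 49.92 and 39.47 FPKM in replicates 1, 3 and 4 (46.07 ± 5.74 FPKM, SD, n = 3). The values of *Dusp6* and *Dusp4* did not overlap. *Dusp6* exceeded *Dusp4* in 3 of 3 replicates, by 2.03, 1.86 and 2.51 times in replicates 1, 3 and 4, and by 1.08 ± 0.22 (SD, n = 3) on the log2 scale after 0.1 FPKM had been added to each value. The ratio was widest in replicate 4, where *Dusp4* was lowest. Together these phosphatases came to 143.2 ± 4.7 FPKM (SD, n = 3), of which *Dusp6* held 67.9% ± 3.3.

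Among the Sprouty genes the order was *Spry2*, *Spry4*, *Spry1* in every replicate. Sprouty proteins are inhibitors induced by growth factors, and each of these genes carried its whole coding sequence in 1 exon of its longest coding transcript, as did 6.5% of the genes expressed at 1 FPKM or more. *Spry2* (chromosome 14, minus strand, 106291166 to 106296036 in mm9) was at 19.84, 18.56 and 17.07 FPKM in replicates 1, 3 and 4 (18.49 ± 1.39 FPKM, SD, n = 3). *Spry4* (chromosome 18, minus strand, 38745922 to 38760922) was at 9.66, 9.54 and 9.85 FPKM (9.68 ± 0.16 FPKM, SD, n = 3). Its values were the closest together of the 10 genes, with a CV of 1.6%, below the 2.0% that counting about 2057 to 2996 reads would give. *Spry1* (chromosome 3, plus strand, 37538869 to 37543520) was at 6.57, 6.97 and 5.54 FPKM (6.36 ± 0.74 FPKM, SD, n = 3).

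No pair of the 3 Sprouty genes overlapped in its values. *Spry2* was 2.91 times *Spry1* by the means, or 1.53 ± 0.11 higher on the log2 scale (SD, n = 3), and *Spry4* was 1.52 times *Spry1*, or 0.61 ± 0.19 higher on that scale. *Spry2* was 1.91 times *Spry4*. The 3 genes together gave 34.5 ± 1.9 FPKM (SD, n = 3), with 52.6% to 55.0% of it from *Spry2*.

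The SPRED genes were near each other in level. *Spred1*, the gene mutated in the human pigmentary disorder Legius syndrome, spans 60906 bases of chromosome 2 (mm9, plus strand, 116947110 to 117008015) and was at 11.96, 10.49 and 11.25 FPKM in replicates 1, 3 and 4 (11.23 ± 0.74 FPKM, SD, n = 3). *Spred2* spans 99652 bases of chromosome 11 (plus strand, 19824378 to 19924029) and was at 12.59, 12.56 and 10.99 FPKM (12.05 ± 0.92 FPKM, SD, n = 3). Their ranges overlapped, and *Spred2* was the higher in 2 of 3 replicates, the exception being replicate 4. The difference of *Spred1* from *Spred2* was -0.10 ± 0.15 on the log2 scale (SD, n = 3), smaller than its spread, and it turned to 0.02 when the values were referred to the longest transcript in place of the joined exons.

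The PEA3 genes divided into *Etv4* and *Etv5*, which were well expressed, and *Etv1*, which was close to nothing. *Etv5* (chromosome 16, minus strand, 22381382 to 22439792 in mm9) was at 49.53, 53.49 and 46.11 FPKM in replicates 1, 3 and 4 (49.71 ± 3.69 FPKM, SD, n = 3). *Etv4* (chromosome 11, minus strand, 101631056 to 101646685) was at 40.78, 49.26 and 30.67 FPKM (40.24 ± 9.31 FPKM, SD, n = 3), the widest scatter of the 9 expressed genes. *Etv1* (chromosome 12, plus strand, 39505967 to 39594802) was at 0.04, 0.02 and 0.02 FPKM, about 12.7, 5.5 and 7.8 reads. In the shallowest replicate 3 reads amount to 0.011 FPKM, so the values lie above that floor, but the rounding of the files to 2 decimals is coarse at this level.

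*Etv5* and *Etv4* exceeded *Etv1* in 3 of 3 replicates. By the means the ratio to *Etv1* was 1570 to 2294 for *Etv5* and 1271 to 1857 for *Etv4*, the limits being set by the rounding of *Etv1* alone. *Etv5* was above *Etv4* in every replicate, by 1.21, 1.09 and 1.5 times in replicates 1, 3 and 4, although the ranges of the 2 genes overlapped. Its log2 difference from *Etv4* was 0.33 ± 0.24 (SD, n = 3). This order rested on the length used: *Etv4* has 12 annotated transcripts whose joined exons (3104 bases) exceed the longest of them (2395 bases), and with the length of the longest transcript the difference was 0.00 on the log2 scale.

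The promoter windows of *Etv5* and *Etv1* are shown for this contrast between paralogs. They come from RefSeq on the build GRCm38.p6, run from 250 bases before to 50 bases after an annotated start on the strand of the gene, and are written 5′ to 3′ with every CpG dinucleotide in capitals. The table lists 2 starts for each gene, and the *Etv5* window shown is the upstream of its pair.
*Etv5*, chr16:22439521-22439820, minus strand: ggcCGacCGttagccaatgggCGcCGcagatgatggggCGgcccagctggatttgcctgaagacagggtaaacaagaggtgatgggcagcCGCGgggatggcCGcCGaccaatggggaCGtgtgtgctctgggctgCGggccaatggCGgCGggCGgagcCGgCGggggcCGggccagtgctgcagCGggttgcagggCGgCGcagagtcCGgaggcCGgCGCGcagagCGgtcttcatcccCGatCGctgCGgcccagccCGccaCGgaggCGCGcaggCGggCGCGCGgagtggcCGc
*Etv1*, upstream start, chr12:38779832-38780131, plus strand: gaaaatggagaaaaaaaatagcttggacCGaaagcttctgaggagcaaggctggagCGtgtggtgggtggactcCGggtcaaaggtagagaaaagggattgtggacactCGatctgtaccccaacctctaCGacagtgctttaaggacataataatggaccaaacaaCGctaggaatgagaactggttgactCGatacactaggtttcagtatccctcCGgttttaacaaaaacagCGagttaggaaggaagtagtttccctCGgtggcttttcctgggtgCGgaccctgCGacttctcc
*Etv1*, downstream start, chr12:38783461-38783760, plus strand: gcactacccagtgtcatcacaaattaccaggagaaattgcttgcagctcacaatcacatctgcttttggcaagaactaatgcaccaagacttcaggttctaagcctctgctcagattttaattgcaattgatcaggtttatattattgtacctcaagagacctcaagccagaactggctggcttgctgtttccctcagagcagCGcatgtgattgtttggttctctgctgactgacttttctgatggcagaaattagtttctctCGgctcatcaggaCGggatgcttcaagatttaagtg

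The *Etv5* window above holds 37 CpG, 0.94 times the number its base composition predicts, and the window of the other *Etv5* start holds 19 (ratio 0.73). The upstream *Etv1* window holds 12 CpG (ratio 0.69) and the downstream one 3 (ratio 0.21). A promoter window was found for 7 of the 10 genes, 9 windows in all. *Dusp4*, *Etv4* and *Spry4* were not matched. Of the 9 windows, 8 had a CpG ratio of 0.6 or more, the exception being the downstream *Etv1* start. The same held for 35.8% of all 32851 windows, for 74.4% of the 9247 windows of genes at 1 FPKM or more in every replicate and for 17.7% of the 7044 windows of genes under 0.1 FPKM in every replicate. By its upstream start, *Etv1* thus had a CpG ratio nearer the median of the expressed genes (0.78) than that of the genes under 0.1 FPKM (0.25). Which start the few *Etv1* reads came from cannot be read from totals over the gene.

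**Figure D2:**
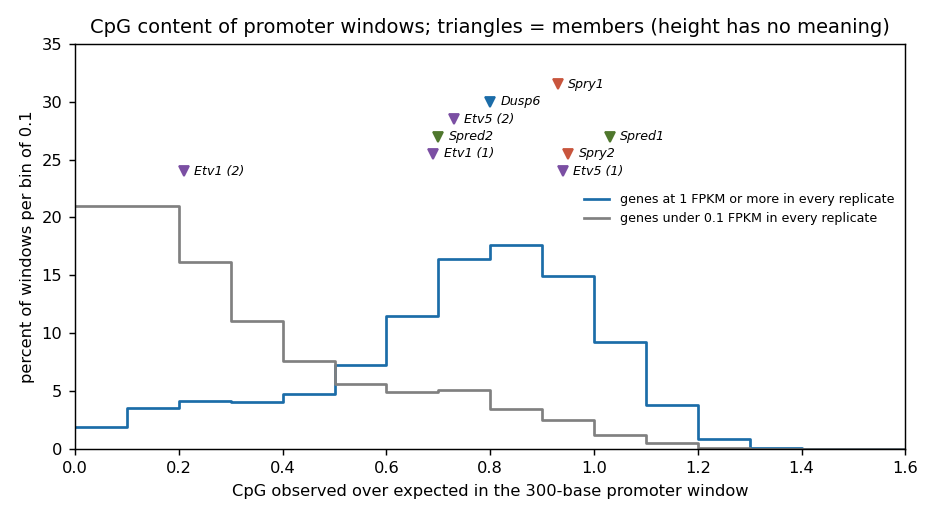
Percent of 300-base RefSeq promoter windows in bins of the CpG observed over expected ratio, for genes at 1 FPKM or more in every replicate (blue) and genes under 0.1 FPKM in every replicate (grey), with triangles for the 9 windows of 7 members, coloured by family and placed at heights that carry no meaning. The downstream *Etv1* window at 0.21 lies among the grey genes and the other 8 lie at 0.69 to 1.03.

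Since the study is about TFAP2A and MITF, the windows were also searched on both strands for the letters of a few binding sites. GCCNNNGGC, a form of the TFAP2 site, was present in the windows of *Spred1*, *Spry2* and *Etv5* (upstream start), 3 of 9 windows against 16.6% of all windows. Its fixed letters are all G or C. The median GC content was 60.0% in the 9 windows, 52.7% over all windows and 61.3% in windows of genes at 1 FPKM or more in every replicate. The share with the site among windows of those expressed genes was not counted. The windows of *Spred1* and *Spry2*, which hold 3 of the 4 matches to GCCNNNGGC, are written from RefSeq (GRCm38.p6), 5′ to 3′, with the matches in capitals. In *Spry2* the capitals 34 bases after the start mark CCGGAA, an ETS site, found in 1 of 9 windows and in 14.9% of all.
*Spred1*, chr2:117120821-117121120, plus strand: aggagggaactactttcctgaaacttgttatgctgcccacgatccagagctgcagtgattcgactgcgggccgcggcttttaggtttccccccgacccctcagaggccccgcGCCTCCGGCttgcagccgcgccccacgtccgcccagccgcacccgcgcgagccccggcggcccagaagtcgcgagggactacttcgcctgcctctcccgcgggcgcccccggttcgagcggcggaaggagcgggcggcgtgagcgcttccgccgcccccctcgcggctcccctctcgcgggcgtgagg
*Spry2*, chr14:105896770-105897069, minus strand: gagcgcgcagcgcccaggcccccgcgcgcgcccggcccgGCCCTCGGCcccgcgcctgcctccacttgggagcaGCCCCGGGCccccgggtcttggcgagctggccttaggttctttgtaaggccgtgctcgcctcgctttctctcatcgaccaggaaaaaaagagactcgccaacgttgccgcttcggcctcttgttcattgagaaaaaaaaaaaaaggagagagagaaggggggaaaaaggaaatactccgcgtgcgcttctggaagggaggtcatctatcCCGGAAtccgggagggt

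Counted from the start site, the *Spred1* match begins at position -138 and the *Spry2* matches at -211 and -176. The *Etv5* match, in the window shown with its CpG, begins at -111. The E-box CATGTG was found in the *Spry1* window and in the downstream *Etv1* window, 2 of 9 against 14.2% of all windows. The E-box CACGTG (7.2% of all), the cAMP response element TGACGTCA (1.8% of all) and the AP-1 site TGANTCA (7.8% of all) were in none of the 9. Such matches are a description of letters in short windows, and no binding was measured in the files used here.

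Sorted by mean level, the 10 genes ran *Dusp6*, *Etv5*, *Dusp4*, *Etv4*, *Spry2*, *Spred2*, *Spred1*, *Spry4*, *Spry1*, *Etv1*. Neighbours whose replicate ranges overlapped were *Etv5* and *Dusp4*, *Dusp4* and *Etv4*, and *Spred2* and *Spred1*. The other 6 steps did not overlap. Of these the smallest was from *Spred1* to *Spry4* at 1.16 times by the means, and the largest above *Etv1* was from *Etv4* to *Spry2* at 2.18 times. Ranks within a single replicate were 523 to 704 for *Dusp6*, 1349 to 1407 for *Etv5*, 1418 to 1660 for *Dusp4*, 1453 to 2119 for *Etv4*, 3301 to 3647 for *Spry2* and 6335 to 7256 for *Spry1*. For *Spred2*, *Spred1* and *Spry4*, which lie close together, the ranks were 4594 to 5043, 4782 to 5156 and 5409 to 5455.

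**Figure D3:**
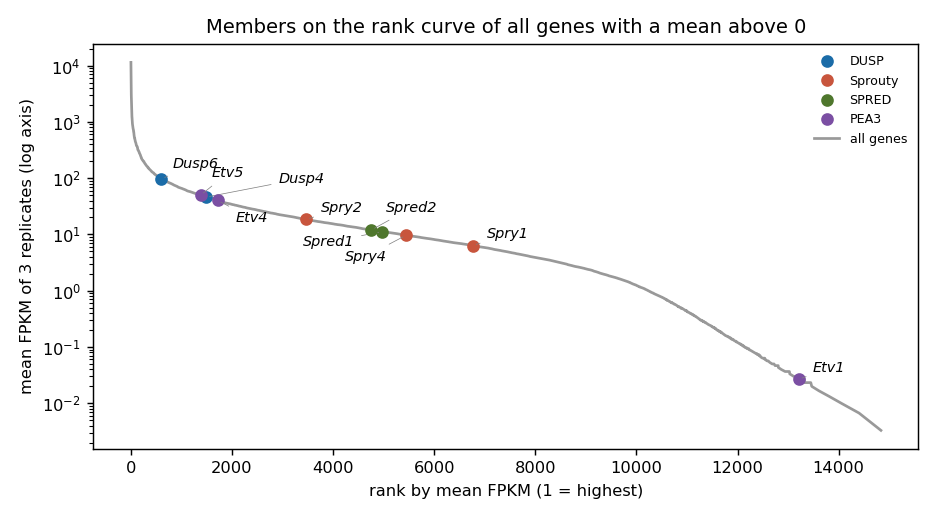
Mean FPKM of the 3 replicates (log axis) against rank for all genes with a mean above 0 (grey line), with the 10 genes marked and coloured by family. *Dusp6* stands at rank 604, *Etv5*, *Dusp4* and *Etv4* between ranks 1379 and 1715, the Sprouty and SPRED genes between 3468 and 6762, and *Etv1* at 13209.

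The 8 pairs within families were each tested with a two-sided exact permutation test that flips the sign of the log2 ratio within replicates. With 3 replicates its smallest possible p is 0.25, so no pair could pass 0.05. For 7 pairs, all but *Spred1* and *Spred2*, the direction held in 3 of 3 replicates, with exact p = 0.25 (0.286 after Benjamini-Hochberg adjustment over the 8 pairs). For *Spred1* and *Spred2* the exact permutation p was 0.5, also 0.5 after adjustment.

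The replicates differed in a way that moved with base composition. Among genes of at least 1 FPKM in every replicate, the log2 ratio of replicates 3 and 4 followed the GC content of the longest coding transcript (Spearman's rho 0.78 over 10006 genes, which share the libraries and are not independent). *Etv4*, *Spry1* and *Dusp4* had the highest GC contents of the 10 genes, at 58.7%, 56.7% and 56.0%, and the 3 largest log2 ratios of replicate 3 to replicate 4, at 0.68, 0.33 and 0.34. *Spred1* had the lowest GC content, 41.2%, and a ratio of -0.10, while *Dusp6* at 49.0% had -0.09 and *Spry4* at 50.8% had -0.05. In all, 6 of the 9 expressed members were higher in replicate 3 than in replicate 4, beside 51.3% of all expressed genes.

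**Figure D4:**
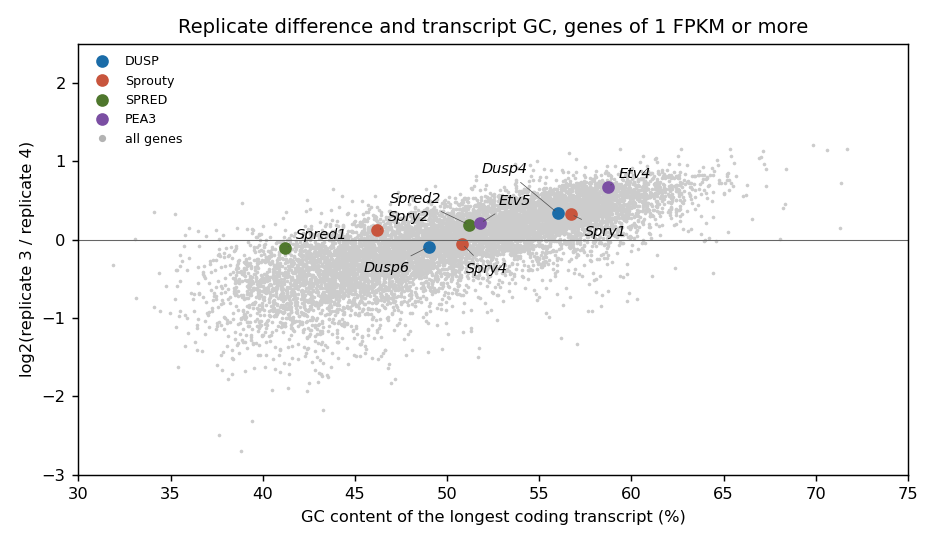
The log2 ratio of replicate 3 to replicate 4 against the GC content of the longest coding transcript (percent), for genes of 1 FPKM or more in every replicate (grey) and for the 9 expressed members, coloured by family. *Etv4* at 58.7% GC is the highest member at 0.68 and *Spred1* at 41.2% GC lies at -0.10.

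*Etv4* was the only expressed member whose highest replicate exceeded its lowest by 1.5 times or more, at 1.61, whereas 18.9% of expressed genes did so. Without replicate 3 this ratio was 1.33 and without replicate 4 it was 1.21. With each replicate corrected for the trend on GC it was 1.18, from corrected levels of 39.90, 42.77 and 36.10 FPKM in replicates 1, 3 and 4, and 5.5% of expressed genes then reached 1.5 times. The same correction narrowed the CV of *Dusp4* from 12.5% to 4.8% and of *Spry1* from 11.6% to 2.1%. It widened that of *Spred1* from 6.5% to 16.2% and that of *Spry2* from 7.5% to 14.9%, both of them genes of low GC that lay above the trend in the plot. The median CV of the 9 expressed members was 7.5%, beside 11.4% over all expressed genes.

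In the annotation the 10 genes were alike in being protein-coding and otherwise varied. *Dusp6*, *Spry1* and *Spry2* span 4258, 4652 and 4871 bases, and *Spred2*, *Etv1* and *Spred1* 60906 to 99652 bases. The PEA3 genes had 12 coding exons each in their longest coding transcript and the SPRED genes 7. ATTTA, the core of the AU-rich elements that mark many short-lived mRNAs, occurred 0 to 12 times in the 3′ untranslated regions of the longest coding transcripts. Per kilobase it was densest in *Etv1* (3.27) and *Spred1* (2.77) and absent from *Etv4*. The median was 1.29 over 9453 expressed genes with such a region of at least 100 bases. *Dusp6*, the highest of the 10 genes, had 0.84. Of the 9 expressed members, 7 lay above the median, the exceptions being *Dusp6* and *Etv4*.

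Genes of the pathway around the members were taken from lists by name. For comparison, 44.1% of all genes in the files were at 1 FPKM or more in every replicate. The median mean level was 0.28 FPKM over all genes and 11.15 FPKM over the genes at that limit. Of 8 other MAP kinase phosphatases, 6 were at 1 FPKM or more in every replicate, with a median of 4.96 FPKM over the list. *Dusp7*, whose product resembles DUSP6, was the highest at 21.32 ± 3.56 FPKM (SD, n = 3), below *Dusp4* and *Dusp6* in every replicate. *Dusp10*, whose product acts on p38 and JNK, followed at 11.45 ± 0.42 FPKM. *Dusp2* and *Dusp9* had means of 0.04 and 0.01 FPKM. *Spred3*, the third SPRED gene, was at 5.98 ± 0.57 FPKM (SD, n = 3), below *Spred1* and *Spred2* in every replicate, and was the only gene of its list of 2 matched in the files.

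Of 10 genes for partners of Sprouty and SPRED proteins, 9 were at 1 FPKM or more in every replicate, with a median of 10.38 FPKM. *Nedd4*, which encodes a ubiquitin ligase that acts on Sprouty proteins, was the highest at 376.67 ± 38.46 FPKM (SD, n = 3), followed by the adaptor gene *Grb2* at 22.68 ± 1.90 FPKM. The lowest were the ubiquitin ligase gene *Siah2* at 5.19 ± 0.86 FPKM and the receptor gene *Kit*, with 0.67, 0.59 and 0.78 FPKM in replicates 1, 3 and 4. All 5 genes for regulators of PEA3 factors were at 1 FPKM or more. *Cic*, a repressor of PEA3 genes that ERK signalling relieves, led at 30.24 ± 6.59 FPKM (SD, n = 3). Its partner *Atxn1l* was at 8.62 ± 0.65 FPKM and *Atxn1* at 3.89 ± 0.68. *Det1* was at 4.19 ± 0.44 FPKM and the ubiquitin ligase gene *Rfwd2*, now called Cop1, at 3.14 ± 0.17.

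Other ETS genes were mostly present as well, 12 of 16 at 1 FPKM or more in every replicate, with a median of 8.33 FPKM. *Elk3*, a ternary complex factor, was the highest at 41.25 ± 3.04 FPKM (SD, n = 3), near *Etv4*, followed by the repressor gene *Erf* at 33.72 ± 9.41 FPKM. *Fli1* and *Ehf* were listed at 0 in every replicate. In the cascade itself, 14 of the 15 genes matched were at 1 FPKM or more, with a median of 18.42 FPKM. *Mapk3*, for an ERK kinase, was the highest at 295.67 ± 61.14 FPKM (SD, n = 3) and the MEK gene *Map2k1* was next at 70.66 ± 2.65, while *Braf* had 2.12 ± 0.64 and *Ksr2*, the lowest, a mean of 0.01 FPKM.

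The other output genes of ERK had a median of 23.12 FPKM, and 10 of 11 were at 1 FPKM or more in every replicate. *Ccnd1*, which encodes cyclin D1, stood far above the rest at 941.21 ± 173.04 FPKM (SD, n = 3). *Phlda1*, a target often read together with the DUSP and Sprouty genes, was at 61.59 ± 3.57 FPKM, between *Etv5* and *Dusp6*. *Maff* was at 4.92 ± 1.29 FPKM, and *Epha4*, an ephrin receptor gene, was listed at 0, 0.01 and 0 FPKM in replicates 1, 3 and 4. Of 7 genes for RAS GTPase-activating proteins and the RAF inhibitor protein, 6 were at 1 FPKM or more. *Pebp1*, which encodes the RAF inhibitor, led at 125.69 ± 21.82 FPKM (SD, n = 3), *Rasa3* followed at 54.13 ± 1.97, and *Rasa2* and *Rasal2* were the lowest at 4.79 ± 1.78 and 0.14 ± 0.01 FPKM.

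**Figure D5:**
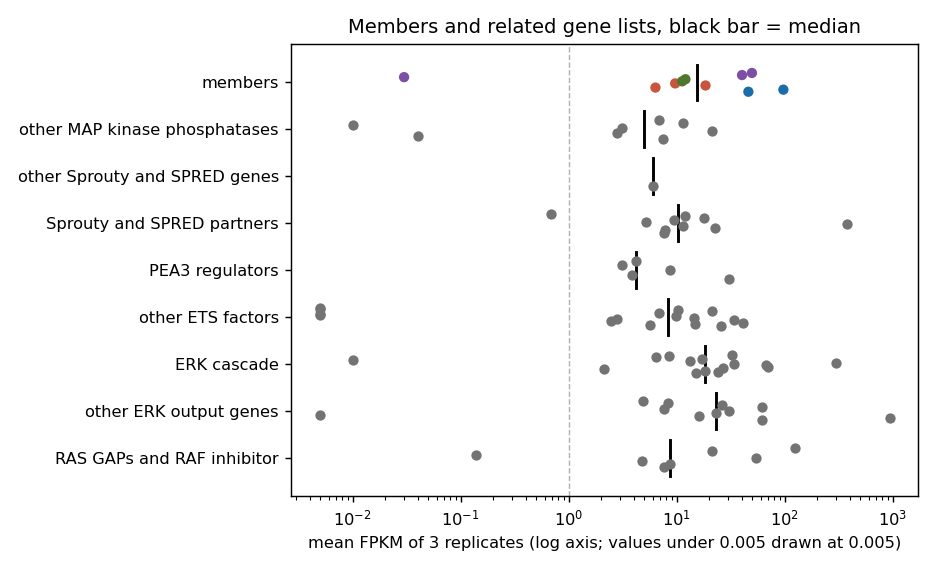
Mean FPKM of the 3 replicates (log axis) for the 10 members, coloured by family as in the plot of levels by replicate, and for the genes of 8 related lists (grey points, 1 per gene), with the median of each list as a black bar 1 FPKM as a dashed line and means under 0.005 FPKM drawn at 0.005. The median of the members, 15.27 FPKM, lies between those of the partners of Sprouty and SPRED proteins (10.38) and the ERK cascade (18.42).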

How the data were processed

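The deposited files give 1 FPKM value per Ensembl gene and replicate, rounded to 2 decimals. The authors prepared stranded mRNA libraries, sequenced each replicate in 3 lanes, trimmed 10 bases from read starts, aligned to mm9 with STAR 2.3.0e, removed rRNA reads and counted with HTSeq 0.5.3p3 on Ensembl 67. The submitters' processing notes also name edgeR. How the authors turned counts into FPKM, and whether counting used strand, is not given in the sources used here.

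Symbols, positions and lengths came from an mm9 annotation of Ensembl 65, which held 22324 of the 22698 genes. Estimated reads are FPKM times joined exon length times library size, the size being that at which genes with 1 transcript give whole reads (mean distance 0.056, 0.057 and 0.081 reads, from 208, 205 and 251 genes). For 80 low values of genes with several transcripts, the distance was 0.16 reads with joined exons, 0.24 with the longest transcript and 0.265 with the mean transcript. GC content is that of the longest coding transcript. Its correction subtracted a cubic trend fitted to genes of at least 1 FPKM. CpG ratios are observed over expected from the C and G of a window.

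The members, lists and motifs were chosen with earlier results of these data known. Named genes were all members and the 2 highest and 2 lowest of each list, or all of a list of 5 or fewer. A further list of cell type markers is not reported here. With 1 condition no test of a difference between conditions was made. The pseudocount was 0.1 FPKM. Protein sequences planned for display were not used here. Library size and GC steps were tested on simulated data. The software was Python 3.11.15 with scipy 1.17.1, numpy 2.4.6, statsmodels 0.14.6, matplotlib 3.10.9 and pandas 2.3.3.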

Additional observations from a re-analysis of the deposited data

How the results depend on the processing

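Of the recomputed values that summarise the members, pairs and lists, 82 kept their direction (pairs), stayed within the replicate spread (medians) or within 1.5 times (counts), 10 moved and 1 changed sign. Pairs were judged by sign alone, so the 82 include the log2 difference of *Etv5* from *Etv4* that fell from 0.33 to 0.00 with the length of the longest transcript. For pairs whose direction held in every replicate, leaving out or rescaling a replicate or changing the pseudocount could not change the sign. The GC correction by its construction leaves the mean log2 difference of a pair nearly unchanged. For those pairs, only the length of the longest transcript could have changed the sign. Referring values to the longest transcript turned the log2 difference of *Spred1* from *Spred2* to 0.02, lowered the median rank percentile of the members to 79.7 and raised the median over all list genes from 10.06 to 12.96 FPKM. Ranking only genes above 0 in every replicate gave a median percentile of 69.9, since fewer low genes remain. Rescaling each replicate to sum to 1000000, which changes the unit, gave a list median of 26.75. The number of members varying by 1.5 times or more between replicates was 0 after rescaling, 0 after correction for GC, 2 with no filter on low values (adding *Etv1*) and 0 to 1 with a replicate left out. With a replicate left out, the list median was 10.03 to 10.46 FPKM. The log2 difference of *Etv5* from *Etv1* was 10.45 with a pseudocount of 0.01 and 5.62 with a pseudocount of 1, and that of *Etv1* from *Etv4* -10.12 and -5.30, so only their direction is firm. Of the recomputed levels and spreads of single genes and medians of single lists, 136 stayed within the replicate spread or, for spreads, on the same side of 1.5 times. The other 32 moved, 19 of them under the rescaling, mostly by its change of unit, and 8 with the length of the longest transcript. Many of the 136 were fixed in advance. Leaving out 1 of 3 replicates cannot move a gene's mean by its SD or widen its spread. A length shared by the replicates cannot change a spread, and the GC correction leaves the mean log2 level of a gene nearly unchanged. The 136 are therefore no measure of robustness. No paired analysis was possible because the files hold a single group, and the pairs tested in the report are of genes within a replicate, not of samples across groups. Depth limits *Etv1*, whose values rest on about 5.5 to 12.7 reads, and intervals of counting cover no other error.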
